A study of Mus musculus with 2 samples.

Results

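TRBV1, TRBV2, TRBV3, TRBV4 and TRBV5 are the 5 variable genes at the 5′ end of the mouse T cell receptor (TCR) β locus. Their rearrangements were described here in T cells regenerated in mice from engineered embryonic stem cells. A clonotype is a set of reads with the same rearrangement, and its CDR3 is the stretch across the V-D-J junction. A clonotype was a member when its first-listed V gene was 1 of the 5, and it counted as TCRβ when its first-listed J gene was a TRBJ gene. This gave 405 of 1640 TCRβ clonotypes in the thymus library and 503 of 2241 in spleen library, or 908 of the 19558 TCRα and TCRβ clonotypes of both libraries. All member clonotypes carried a TRBJ gene, and none had a second V gene with an equal alignment score.

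The cells came from C57BL/6 (CD45.2) iR9-ESC, embryonic stem cells with a doxycycline-inducible Runx1-p2a-Hoxa9 cassette in Rosa26. Induced hematopoietic progenitor cells made from them in vitro under doxycycline were transplanted into irradiated, immunodeficient B-NDG mice (CD45.1). At week 6 the resulting iT cells were sorted, with 15000 cells as the input of each library. The thymus gate took lineage-negative CD45.2+ CD4 or CD8 single-positive cells without TCRγδ, whereas the spleen gate took CD45.2+ CD62L+ CD44- naive CD4 or CD8 single-positive cells, by the study's methods. Elsewhere the study calls the thymus cells naive as well, so whether the gates differed was not settled. No library from ordinary C57BL/6 T cells was analysed here. The tables held TCR transcripts alone, so the labelled cell type was not checked against other markers. How many mice gave each library is not given in the sources used here.

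There was 1 library per tissue, so no difference between tissues had a replicate check and no test was made. Tissue and library, and the sorting gate if it differed, cannot be told apart. Intervals are 95% Wilson intervals for shares and cover counting error only, since amplified reads are not independent molecules. The libraries held 1782199 TCRβ reads (thymus) and 2765086 (spleen), at which 3 reads made up 0.000168% and 0.000108%. Reads were unevenly spread. A single TRBV19 clonotype took 26.7% of TCRβ reads in thymus, and a single TRBV13-3 clonotype took 56.2% in spleen.

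A β chain gene is assembled in developing thymocytes by joining a D to a J segment and then a V segment to the DJ. The RAG recombinase makes the cuts, exonucleases trim the ends, and terminal transferase adds bases. Only junctions that keep the reading frame and hold no stop codon can encode a receptor chain. Junctions that fail remain on the chromosome, and a T cell with a failed β allele relies on the other allele. Transcripts of failed junctions are usually reduced by nonsense-mediated decay.

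In the GENCODE M21 annotation of GRCm38 the 5 genes lie on the plus strand of chromosome 6, each typed as a functional V gene, and the bases they bring to the CDR3 are the 3′ end of the V exon. Trbv1 (chr6:40891229-40891885) stands apart, 155 kb upstream of Trbv2, and 10 other genes are annotated between them. Trbv2 (chr6:41047340-41047995), Trbv3 (chr6:41048290-41048828), Trbv4 (chr6:41059394-41059886) and Trbv5 (chr6:41062332-41062803) sit within 15.5 kb. The distance from the gene's end to Trbd1 is 641 kb for Trbv1 and 470 kb for Trbv5.

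The germline bases that each gene brings to the CDR3 are shown first because the finding on TRBV4 turns on them. They are the last 17 bases of each GENCODE transcript from the conserved cysteine codon on, cut for Trbv3 at the RefSeq gene end, and the capitals mark codon 5 of the CDR3 (bases 13 to 15):
TRBV1: tgcacctgcagtGCAga
TRBV2: tgtgccagcagcCAAga
TRBV3: tgtgccagcagcTTAgc
TRBV4: tgtgccagcagcTAAga
TRBV5: tgtgccagcagcCAAga
Codon 5 of TRBV4 is a stop codon in the reading frame of the V gene. TRBV4 was the only 1 of 20 functional TRBV genes whose germline CDR3 part could be located that held such a stop. TRBV2 and TRBV5 are identical over the 17 bases, and TRBV4 matches both at 16 of 17.

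The junctions that carried the most reads are shown next, with the bases outside the exact germline V and J matches (D and added bases) in capitals. The out-of-frame TRBV5 junction dominates the TRBV5 reads of both tissues. The in-frame TRBV5 junctions lead their class in thymus (TRBJ2-7) and spleen (TRBJ2-4), and the TRBV4 junction leads its gene in both:
TRBV5-TRBJ2-3, out of frame: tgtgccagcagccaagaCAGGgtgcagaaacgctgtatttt
TRBV5-TRBJ2-7, in frame: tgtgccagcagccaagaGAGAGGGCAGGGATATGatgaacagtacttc
TRBV5-TRBJ2-4, in frame: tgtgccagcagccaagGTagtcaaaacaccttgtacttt
TRBV4-TRBJ1-2, in frame: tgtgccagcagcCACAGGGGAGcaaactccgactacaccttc

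Together the 5 genes made up 24.7% of TCRβ clonotypes in thymus (22.7 to 26.8) and 22.4% in spleen (20.8 to 24.2). They took 13.7% of TCRβ reads in thymus and 9.63% in spleen. That order depended on which clonotypes were counted, by alternatives of which all but the members' leads were chosen after the data were seen. With the largest TCRβ clonotype of each library left out, the members took 18.7% of the remaining reads in thymus and 22.0% in spleen, which turned the order. With the leading clonotype of each member left out they took 7.10% and 3.76%, and with all clonotypes found in both tissues left out 26.2% and 20.4%, which kept it. In bulk libraries fewer cells of a clonotype and less RNA per cell cannot be told apart.

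TRBV5 was the most used member. It had 124 clonotypes and 7.42% of TCRβ reads in thymus, and 165 clonotypes and 7.22% of reads in spleen. It was number 4 of 26 TRBV genes by clonotypes in both tissues, level with TRBV20 in spleen.

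TRBV1 had 72 clonotypes and 1.08% of reads in thymus and 123 clonotypes and 0.958% in spleen. Its share of clonotypes was 4.39% (3.50 to 5.49) and 5.49% (4.62 to 6.51), with intervals that overlapped. The gene is the farthest from the D and J segments among the 5, and a link of distance with use was not tested. In spleen it had more clonotypes than TRBV2, TRBV3 and TRBV4, with an interval that overlapped that of TRBV2 (3.20 to 4.81). In thymus it had fewer than TRBV4 (76), and its interval overlapped those of TRBV2, TRBV3 and TRBV4.

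TRBV2 had 64 and 88 clonotypes in thymus and spleen, with 0.495% and 0.243% of reads. TRBV3 had 69 and 70 clonotypes, with 0.678% and 0.480% of reads. These were the least read of the 5 genes in both tissues.

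TRBV4 had the largest fold between the libraries among the 5 genes when all TCRβ reads were counted. It had 76 clonotypes in thymus and 57 in spleen, or 4.63% (3.72 to 5.76) and 2.54% (1.97 to 3.28) of TCRβ clonotypes, with intervals that did not overlap. Its reads made up 4.02% of the thymus library and 0.722% of the spleen library, 5.56-fold lower in spleen. With clonotypes found in both tissues left out, TRBV4 was 2.22-fold lower in spleen and TRBV3 2.54-fold lower, so that the first place went to TRBV3.

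Read shares at least 2-fold lower in spleen were found for 2 of the 5 members, TRBV4 and TRBV2 (2.04-fold). The same held for 37.5% of the 24 TRBV genes with at least 30 reads in each library, so that the members' count was near the background. No member was 2-fold higher in spleen, against 4.17% of all genes. The median ratio of spleen to thymus was 0.709 over the members and 0.692 over all 24 genes. Without the largest clonotype of each library, TRBV4 was still 3.33-fold lower in spleen, the only member past 2-fold in that direction, against 16.7% of genes. TRBV2 was then 1.22-fold lower, whereas TRBV1, TRBV3 and TRBV5 were 1.48-fold, 1.19-fold and 1.63-fold higher in spleen. By share of clonotypes no member moved by 2-fold, against 4.17% of genes lower and 0% higher.

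**Figure D1:**
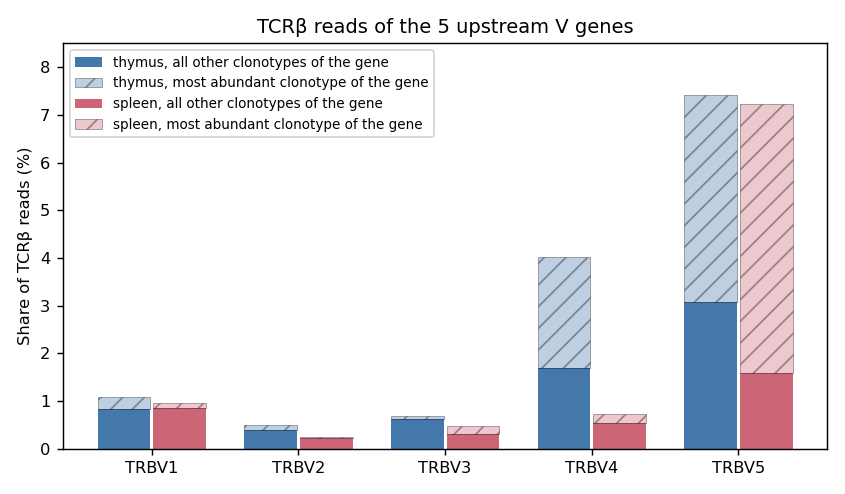
Share of all TCRβ reads (y axis, %) of each of the 5 genes in thymus (blue) and spleen (red) library, with the part taken by the gene's most abundant clonotype hatched on top of the rest. The hatched part makes up most of TRBV5 in both tissues and most of TRBV4 in thymus.

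A few clonotypes set these read shares. The leading TRBV5 clonotype held 58.6% of the gene's reads in thymus and 77.9% in spleen. The leading TRBV4 clonotype held 58.1% in thymus and 25.1% in spleen. In both genes the thymus lead alone outweighed all the other clonotypes of the gene.

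Leading clonotypes of the other 3 genes were smaller. They held 22.1% (TRBV1), 22.2% (TRBV2) and 9.23% (TRBV3) of the gene's reads in thymus, and 10.9%, 6.32% and 34.9% in spleen. The largest clonotypes needed to reach 50% of TRBV1 reads were 3 in thymus and 18 in spleen, so the gene's reads were spread over more clonotypes there. For TRBV2 they were 6 and 18, and for TRBV3 7 and 4.

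With the leading clonotype of each member left out, TRBV4 still had 1.81% of the remaining reads in thymus and 0.576% in spleen, a 3.15-fold difference. TRBV5 then had 3.31% and 1.70%, 1.95-fold lower in spleen, against 1.03-fold with its lead. TRBV1 had 0.908% and 0.909%.

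The TRBV5-TRBJ2-3 junction is the outstanding member clonotype. Its CDR3 of 41 bases keeps all 17 germline V bases, has 4 D or added bases between the V and J matches, and is out of frame. It had 77447 reads in thymus, or 4.35% of TCRβ reads, and 155690 in spleen, or 5.63%. It was number 5 among all TCRβ clonotypes of the thymus and number 4 among those of the spleen. The next largest out-of-frame TCRβ clonotype of any V gene was a TRBV17 clonotype in both libraries, with 11741 reads in thymus and 2137 in spleen. The TRBV5 clonotype was thus 6.60-fold and 72.9-fold larger than the next of its kind. No TCRβ clonotype lay within 1 substitution, insertion or deletion of it in either library.

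Out-of-frame clonotypes took 62.8% of TRBV5 reads in thymus (62.6 to 63.1) and 79.1% in spleen (78.9 to 79.2). Among all other TRBV genes outside the 5, out-of-frame clonotypes took 3.52% and 1.24% of reads. With the leading TRBV5 clonotype left out, out-of-frame clonotypes held 10.2% and 5.10% of the remaining TRBV5 reads. The values for genes outside the 5 keep their leading clonotypes, so the comparison is not like for like. In TRBV1 to TRBV4, with no clonotype left out, out-of-frame clonotypes held 5.13% to 10.9% of reads in thymus. In spleen they held 4.06% to 12.4%.

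Counted as clonotypes, the TRBV5 interval overlapped that of the other TRBV genes. In-frame junctions were 99 of its 124 clonotypes in thymus, or 79.8% (71.9 to 86.0), and 128 of 165 in spleen, or 77.6% (70.6 to 83.3). The other TRBV genes, annotated pseudogenes included, had 73.5% (71.0 to 75.9) and 76.3% (74.2 to 78.2). The median in-frame TRBV5 clonotype had 140 reads in thymus and 189.5 in spleen, and the median out-of-frame one 73 and 46. The low median of the out-of-frame class stood beside its single very large clonotype.

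The TRBJ1 shares of the 2 classes of TRBV5 junction had overlapping intervals. With 25 and 37 out-of-frame clonotypes these were wide, and single J genes were not compared between the classes. TRBJ1 genes were used by 25.3% of in-frame clonotypes (17.7 to 34.6) and 7 of 25 out-of-frame ones (14.3% to 47.6%) in thymus, and by 33.6% (26.0 to 42.1) and 29.7% (17.5 to 45.8) in spleen. The in-frame lead of the thymus, TRBV5-TRBJ2-7, had 9922 reads there and 1765 in spleen. The in-frame lead of the spleen, TRBV5-TRBJ2-4, had 5419 reads there and 233 in thymus.

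**Figure D2:**
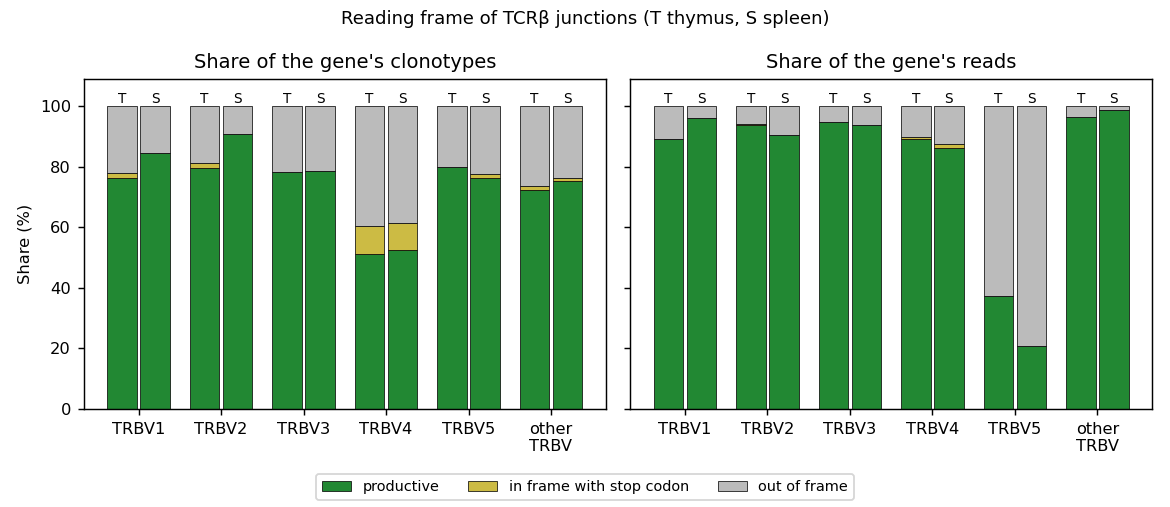
Share (y axis, %) of productive (green), in-frame with a stop codon (yellow) and out-of-frame (grey) junctions among each gene's clonotypes (left) and reads (right), with thymus (T) and spleen (S) bars side by side. TRBV4 has the fewest productive clonotypes, and TRBV5 is the only gene shown with mostly out-of-frame reads, 62.8% and 79.1%. The bars of the other TRBV genes include annotated pseudogenes.

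TRBV4 had the lowest share of in-frame and of productive junctions among the 5 genes. In frame were 46 of 76 clonotypes in thymus, or 60.5% (49.3 to 70.8), and 35 of 57 in spleen, or 61.4% (48.4 to 72.9). These in-frame intervals overlapped those of TRBV1, TRBV2 and TRBV3 in thymus and those of TRBV3 and TRBV5 in spleen. Productive junctions, in frame and with no stop codon, were 39 in thymus, or 51.3% (40.3 to 62.2), and 30 in spleen, or 52.6% (39.9 to 65.0).

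In the other 4 members 76.4% to 79.8% of clonotypes were productive in thymus and 76.4% to 90.9% in spleen, with the highest value in spleen TRBV2. The TRBV4 interval lay below those of the other 4 genes in both tissues. It also lay below that of the TRBV genes outside the 5, which had 72.5% (69.9 to 74.9) and 75.4% (73.4 to 77.4). The genes outside the 5 include annotated pseudogenes, without which they had 73.7% (71.1 to 76.1) and 77.1% (75.1 to 79.1).

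The germline stop was visible in the junctions. A stop at codon 5 was found in 18 of 76 TRBV4 clonotypes in thymus, or 23.7% (15.5 to 34.4), and in 17 of 57 in spleen, or 29.8% (19.5 to 42.7). The germline codon TAA made up 16 of the 18 and 16 of the 17, and the rest had another stop codon there. By the genetic code none of them was productive, whatever followed. The other 4 members together had 1 clonotype with a stop at this codon in each tissue, from TRBV2 in thymus and TRBV3 in spleen. Outside the 5 genes there were 3 of 1235 and 2 of 1738.

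Of these TRBV4 clonotypes 6 were in frame in thymus and 5 in spleen, and 12 in each tissue were out of frame as well. The in-frame ones were 6 of the 7 TRBV4 clonotypes that were in frame with a stop in thymus and 5 of 5 in spleen. The largest of each tissue, chosen after its values were seen, had 128 reads (thymus, TRBV4-TRBJ1-5) and 103 reads (spleen, TRBV4-TRBJ2-4), with the stop codon in capitals:
TRBV4-TRBJ1-5, thymus: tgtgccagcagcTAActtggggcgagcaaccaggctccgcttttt
TRBV4-TRBJ2-4, spleen: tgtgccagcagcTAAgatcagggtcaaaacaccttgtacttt
The first keeps 15 germline bases and the second all 17. The leading productive TRBV4-TRBJ1-2 junction shown above keeps 12, so its V end stops just before the stop codon.

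Together the clonotypes with a stop at codon 5 held 3.92% of TRBV4 reads in thymus and 7.02% in spleen, far less than their share of clonotypes. Their median was 71.5 and 43 reads, against 179 and 218.5 for productive TRBV4 clonotypes. Over all TRBV4 clonotypes that were not productive the median was 62 and 65 reads, so the low reads were not particular to this stop. In the TRBV genes outside the 5, productive clonotypes had medians of 108 and 162 reads, and those not productive 40 and 42. The productive TRBV4 lead, with 58.1% and 25.1% of the gene's reads, also weighs on the read share. Among TRBV4 clonotypes without a stop at this codon, in-frame ones were 40 of 58 in thymus, or 69.0%, and 30 of 40 in spleen, or 75.0%.

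The same feature showed in how much of the V gene was kept. The retained length was taken as the unbroken match of the CDR3 to the 17 germline bases, and it can include added bases that match by chance. At least 15 bases, enough to hold codon 5, were kept by 0 of 39 productive TRBV4 clonotypes in thymus and 0 of 30 in spleen, as the code requires. Productive TRBV5 clonotypes kept them in 52 of 99, or 52.5% (42.8 to 62.1), and in 86 of 126, or 68.3% (59.7 to 75.7).

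Out-of-frame junctions, which are not held to a reading frame, gave a smaller gap. At least 15 bases were kept by 11 of 30 out-of-frame TRBV4 clonotypes in thymus, or 36.7% (21.9 to 54.5), and by 11 of 22 in spleen (30.7% to 69.3%). For out-of-frame TRBV5 the shares were 48.0% (30.03 to 66.5) and 54.1% (38.4 to 69.0). These intervals overlapped widely, and the number of clonotypes does not allow a difference of moderate size to be seen.

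**Figure D3:**
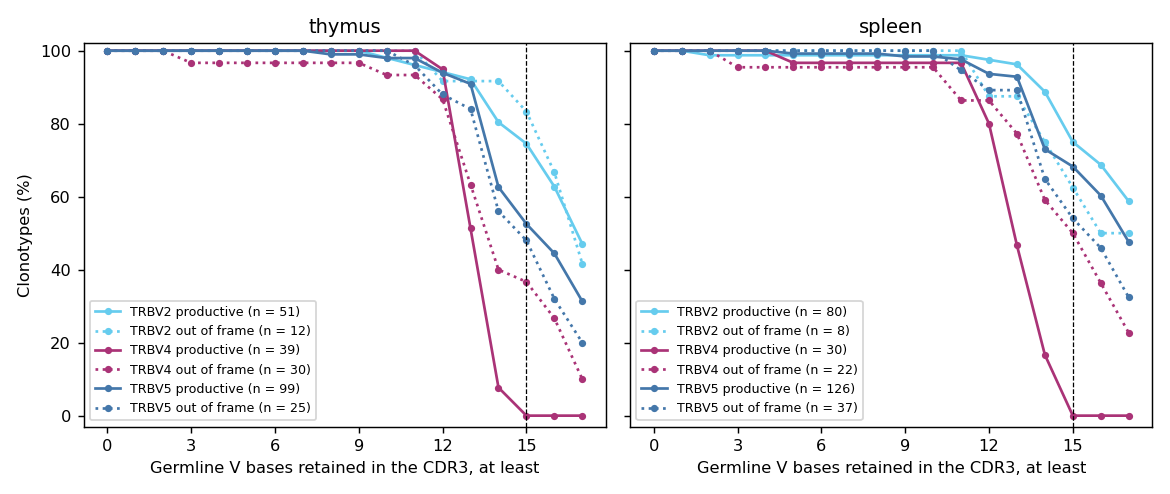
Percentage of clonotypes (y axis) that keep at least the given number of germline V bases in the CDR3 (x axis) for TRBV2, TRBV4 and TRBV5 in thymus (left) and spleen (right), with productive junctions as solid and out-of-frame ones as dotted lines. The dashed line at 15 bases marks codon 5, where productive TRBV4 falls to 0 while its out-of-frame junctions stand at 11 of 30 and 11 of 22.

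TRBV2 and TRBV5 begin the CDR3 with the same 17 bases, so they offer a comparison in which the V end is equal. At least 15 bases were kept by 75.0% (63.2 to 84.0) of TRBV2 clonotypes and 51.6% (42.9 to 60.2) of TRBV5 clonotypes in thymus. In the spleen the shares were 73.9% (63.8 to 81.9) and 64.8% (57.3 to 71.7). The intervals were apart in thymus and overlapped in spleen.

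TRBV1 kept 15 or more bases in 56.9% and 52.8% of clonotypes in thymus and spleen, and TRBV3 in 43.5% and 37.1%. All 17 bases were kept in 8.70% and 8.57% of TRBV3 clonotypes and in 6.58% and 12.3% of TRBV4 clonotypes, against 18 of 72 and 36 of 123 TRBV1 clonotypes and 45.3% and 58.0% in TRBV2. The TRBV4 shares include productive clonotypes, which cannot keep codon 5. Among TRBV4 clonotypes that were not productive, 13.5% (5.91 to 28.0) kept all 17 in thymus and 25.9% (13.2 to 44.7) in spleen. Of TRBV5 clonotypes 29.0% (21.8 to 37.6) were untrimmed in thymus and 43.6% (36.3 to 51.3) in spleen.

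Productive CDR3 lengths had means between 41.9 and 43.7 bases in both tissues, except for TRBV4 in spleen. The mean ± SD over clonotypes was 42.9 ± 4.27 bases (n = 55) for TRBV1 in thymus and 41.9 ± 4.62 (n = 104) in spleen. For TRBV5 it was 43.7 ± 4.85 (n = 99) and 43.3 ± 4.06 (n = 126). TRBV4 was 42.5 ± 5.61 (n = 39) in thymus and had the shortest mean in spleen, 38.1 ± 5.80 (n = 30). These SDs describe the spread among clonotypes of 1 library and not among samples.

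Each V gene can join either of 2 D-J clusters, with the TRBJ1 genes upstream of the TRBJ2 genes. TRBJ1 genes were used by 27.9% (23.8 to 32.5) of member clonotypes in thymus and 36.6% (32.5 to 40.9) in spleen. The other TRBV genes had 37.7% (35.1 to 40.5) and 39.0% (36.7 to 41.3). The members' interval lay below that of the others in thymus, and the intervals overlapped in spleen.

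The 5 genes were not alike in this. In the thymus the TRBJ1 share was 44.4% (33.5 to 55.9) for TRBV1, and it was 29.7% for TRBV2, 23.2% for TRBV3, 18.4% (11.3 to 28.6) for TRBV4 and 25.8% (18.9 to 34.1) for TRBV5. In the spleen TRBV1, TRBV2 and TRBV3 stood at 41.5%, 43.2% and 41.4%, TRBV5 at 32.7% (26.0 to 40.2) and TRBV4 at 21.1% (12.5 to 33.3). TRBV4 was lowest in both tissues, with an interval below that of the TRBV genes outside the 5 in each. TRBV1 lay above TRBV4 in thymus without overlap, and its interval in spleen (33.1 to 50.3) met that of TRBV4 by less than 1 percentage point.

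By single J genes, TRBV1 joined TRBJ1-2 most often in thymus (19 of 72 clonotypes) and TRBJ2-7 in spleen (21 of 123). TRBV2 joined TRBJ1-2 most often in both, with 12 clonotypes in thymus, where TRBJ2-4 also had 12, and 20 in spleen. TRBV3 joined TRBJ2-7 (17 clonotypes) in thymus and TRBJ1-2 (12) in spleen.

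TRBV4 joined TRBJ2-1 most often in thymus (20 of 76) and TRBJ2-7 in spleen (14 of 57). It had no TRBJ1-3 clonotype in either, but TRBJ1-3 was rare over the other TRBV genes as well (1.46% and 3.05%). TRBJ2-3 had no TRBV4 clonotype in thymus, against 10.1% over the other TRBV genes, and 4 in spleen. TRBV5 joined TRBJ2-5 (31 of 124) in thymus and TRBJ2-7 (31 of 165) in spleen. TRBJ2-7, the most 3′ of the J genes, was the most frequent partner over the 5 genes in both tissues, with 81 of 405 and 85 of 503 clonotypes. Over the other TRBV genes that place was held by TRBJ1-2, with 24.1% and 17.7%.

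**Figure D4:**
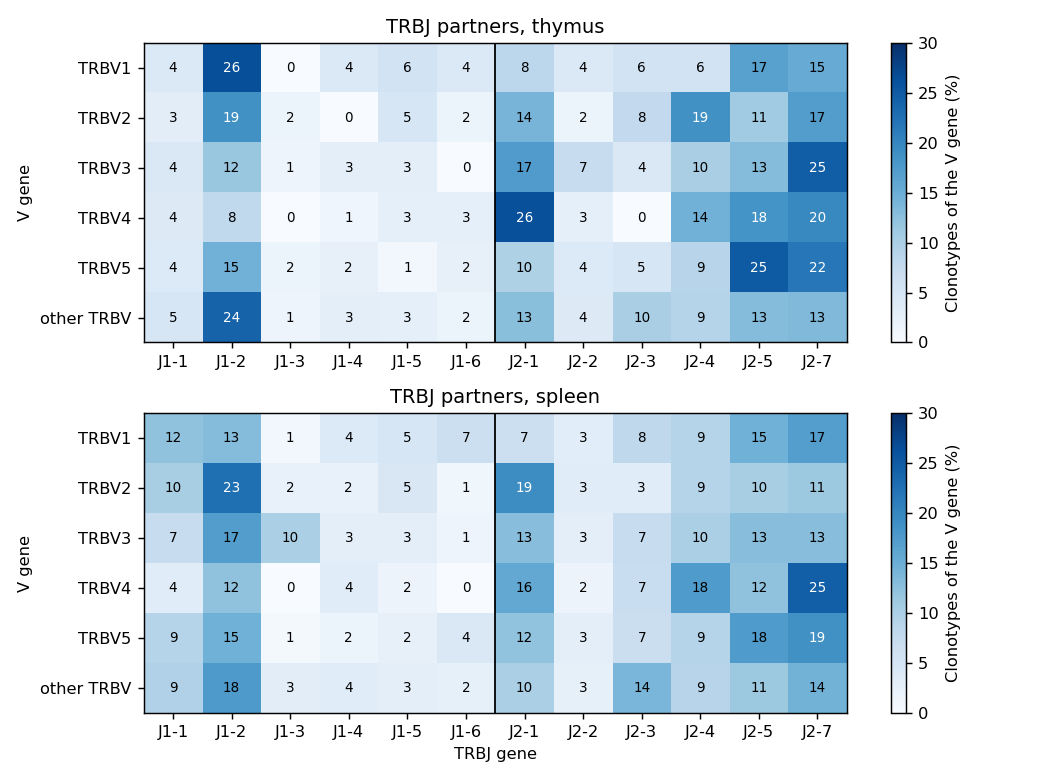
Percentage of each V gene's clonotypes (cell values and colour) that use each of the 12 TRBJ genes (x axis) in thymus (top) and spleen (bottom), with the line between J1-6 and J2-1 dividing the clusters. The TRBV4 row holds 18.4% and 21.1% of its clonotypes left of that line, the lowest of the rows shown.

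By reads the order of J partners followed single clonotypes. TRBJ2-3 held 58.8% of TRBV5 reads in thymus and 78.7% in spleen, through the out-of-frame junction. TRBJ1-2 held 69.0% and 43.9% of TRBV4 reads, though it had 6 and 7 TRBV4 clonotypes. The other leading J genes by reads were TRBJ1-2 (39.3%) and TRBJ2-5 (22.4%) for TRBV1, TRBJ2-4 (41.9%) and TRBJ1-2 (23.0%) for TRBV2, and TRBJ2-1 (26.1%) and TRBJ1-3 (38.9%) for TRBV3, in thymus and spleen.

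Likeness of J profile was measured as the total variation distance between shares of clonotypes over the 12 J genes, from 0 for equal to 1 for disjoint profiles, as a mean of both tissues over 15 other TRBV genes. The nearest genes were TRBV13-3 (0.135) and TRBV15 (0.153) for TRBV1, and TRBV19 (0.162) and TRBV15 (0.165) for TRBV2. TRBV19 was also nearest to TRBV3 (0.154, then TRBV5 at 0.168) and to TRBV5 (0.158, then TRBV1 at 0.165). The least distances of TRBV4 were larger, 0.220 to TRBV3 and 0.221 to TRBV5. They were close to its own distance between the tissues, and its 76 and 57 clonotypes leave such distances open to sampling error. The distance of a gene from itself between the tissues was 0.130 to 0.212 for the other 4 and 0.215 for TRBV4, and it was larger than the distance to the nearest gene for TRBV1, TRBV2 and TRBV3 but smaller for TRBV4 and TRBV5.

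Junctions found in both tissues with the same CDR3, V and J numbered 34 for TRBV5, 20 for TRBV1, 14 for TRBV4, 10 for TRBV3 and 8 for TRBV2. Over the 5 genes and whatever member V was listed, 87 CDR3s were found in both. They were 21.5% (17.8 to 25.7) of member clonotypes in thymus and 17.3% (14.2 to 20.8) in spleen. The other TRBV genes shared 24.5% (22.1 to 26.9) and 17.4% (15.7 to 19.2), with intervals that overlapped those of the members. Of the 87, 9 had 1 read in thymus and 5 had 1 read in spleen, and 69 had at least 10 reads in both.

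These few junctions carried most reads of some genes. They held 87.3% and 87.2% of TRBV5 reads in thymus and spleen, and 87.9% and 65.3% of TRBV4 reads. In the others they held 69.2% and 26.7% (TRBV1), 29.0% and 13.1% (TRBV2), and 25.2% and 52.7% (TRBV3). Of the 87 junctions, 50 had the higher share of TCRβ reads in thymus.

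The TRBV4-TRBJ1-2 lead had 41581 reads in thymus, or 2.33% of TCRβ reads, and 5012 in spleen, or 0.181%. It was number 7 of all TCRβ clonotypes in thymus and number 14 in spleen. The other leads of TRBV1, TRBV2 and TRBV3 are shown to let the junctions be compared between tissues, with bases outside the germline matches in capitals:
TRBV1-TRBJ1-6, thymus lead: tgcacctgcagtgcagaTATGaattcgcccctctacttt
TRBV1-TRBJ2-5, spleen lead: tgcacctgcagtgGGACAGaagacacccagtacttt
TRBV1-TRBJ1-2, largest shared in spleen: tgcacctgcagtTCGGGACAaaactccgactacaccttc
TRBV2-TRBJ2-4, thymus lead: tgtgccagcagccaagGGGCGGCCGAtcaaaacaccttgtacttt
TRBV2-TRBJ2-1, spleen lead: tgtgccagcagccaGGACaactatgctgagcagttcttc
TRBV3-TRBJ2-1, thymus lead: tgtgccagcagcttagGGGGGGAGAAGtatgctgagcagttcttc
TRBV3-TRBJ1-3, spleen lead: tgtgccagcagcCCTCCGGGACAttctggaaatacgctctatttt
All 7 are in frame.

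The TRBV1-TRBJ1-6 lead of the thymus had 4260 reads there and 3 in spleen. The TRBV1-TRBJ2-5 lead of the spleen had 2885 reads and was not found in thymus, where 0 reads allows a share of up to 0.000168%. The TRBV1-TRBJ1-2 junction was more even, with 1967 reads in thymus and 1389 in spleen. The TRBV1 leads therefore belonged mainly to 1 tissue each.

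The TRBV2-TRBJ2-4 lead of the thymus had 1964 reads there and 72 in spleen, and the TRBV2-TRBJ2-1 lead of the spleen had 425 and was not found in thymus. The largest shared TRBV2 junction of the spleen was an out-of-frame TRBV2-TRBJ1-5 junction with 226 reads in thymus and 203 in spleen. The TRBV3-TRBJ2-1 lead of the thymus had 1115 reads there and 202 in spleen. The TRBV3-TRBJ1-3 lead of the spleen had 4636 reads there and 1006 in thymus.

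**Figure D5:**
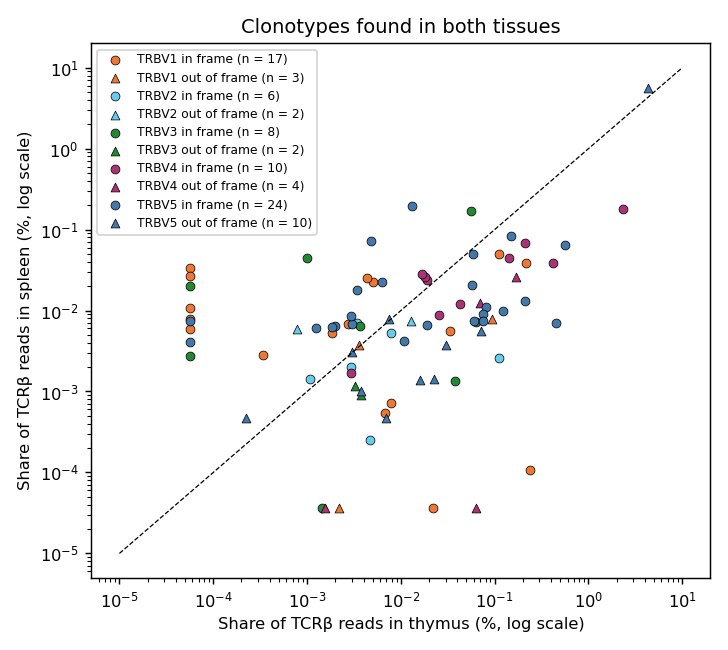
Share of TCRβ reads in thymus (x axis, %, log scale) against the spleen (y axis, %, log scale) for each junction found in both tissues with the same V gene, coloured by gene, with in-frame junctions as circles and out-of-frame ones as triangles, and a dashed line of equal shares. The out-of-frame TRBV5-TRBJ2-3 junction is at the top right (4.35% and 5.63%), and the points at the far left and bottom are those with 1 read in a tissue.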

How the data were processed

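TCR transcripts of sorted iT cells were measured in 2 libraries, thymus and spleen, each of which the authors reverse transcribed and amplified with the SMARTer Mouse TCR a/b kit and sequenced on a MiSeq. The submitters' notes name bcl2fastq. The authors aligned and assembled clonotypes with MiXCR 2.1.12, and deposited for each clonotype its read counts, without normalization, and its fraction of all reads of both chains. Read filters and molecular identifiers are not given in the sources used here. The deposited fraction was not used, and shares were recomputed over TCRβ reads.

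The 5 genes, the lists and the rules were chosen with earlier results of these data known. Clonotypes were taken as assembled, with no read minimum. In frame meant a CDR3 length that is a multiple of 3 nucleotides. Named were the most abundant clonotype of each gene and tissue, the leading in-frame and out-of-frame TRBV5 clonotypes, member clonotypes among the 10 most abundant of a tissue, the most abundant shared clonotype of each gene, the J genes leading by clonotypes or reads, and the 2 TRBV genes nearest in J profile with at least 30 clonotypes in both tissues. Alternatives were a minimum of 2 or 10 reads, tied V genes left out, merging of clonotypes 1 nucleotide apart with at least 20 times the reads, equal reads, TRBJ only, other frame rules, and leading, shared or the largest clonotypes left out. Merging and folds were tested on simulated data. Python 3.11.15 with numpy 2.4.6, pandas 2.3.3, scipy 1.17.1 and matplotlib 3.10.9 was used.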

Additional observations from a re-analysis of the deposited data

How the results depend on the processing

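No paired analysis was possible because each tissue had 1 library and no test was made. The in-frame share per clonotype and the TRBJ1 share stayed within their intervals under every alternative run that counts each clonotype once. The number of member clonotypes stayed within 1.5 times its value, but it fell below its interval with at least 10 reads in spleen (458) and with clonotypes found in both tissues left out (318 in thymus and 416 in spleen). Values weighted by reads depended on a few clonotypes. Without the leading clonotype of each of the 5 genes, their read share was 7.10% in thymus and 3.76% in spleen, and the out-of-frame share of TRBV5 reads was 10.2% and 5.10%. With clonotypes found in both tissues left out, these were 26.2% and 20.4%, and 16.5% and 6.10%. Without the largest TCRβ clonotype of each library, the read share was 18.7% and 22.0%, which turned the order of the tissues. The last 2 alternatives were chosen after seeing the data, as was leaving out annotated pseudogenes, which left the members' read share within its interval. Weighted by reads, the in-frame share of the members was 61.7% and 38.8%. Of 150 values of single genes under alternatives, 19 moved beyond their interval, all of them read shares without leading or largest clonotypes. These 150 did not cover leaving out clonotypes found in both tissues, which also moved the read shares of single genes. TRBV1 went from 1.08% to 3.36% in thymus and from 0.958% to 6.20% in spleen. Counts of 57 to 165 clonotypes per gene and tissue limit what can be seen in frame, trimming and J use, and 1 library per tissue gives no spread between animals.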

Other observations

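Some member junctions had unusual lengths, and all of them were out of frame. A TRBV4-TRBJ2-1 junction of 16 bases had 3024 reads in thymus and 718 in spleen, the most of any out-of-frame TRBV4 clonotype in both. Its whole CDR3 matched the germline of TRBJ2-1, and 2 of its bases also matched the start of the TRBV4 CDR3:
TRBV4-TRBJ2-1, out of frame: tgctgagcagttcttc
At the other end were a TRBV5-TRBJ2-4 junction of 169 bases with 1 read in thymus, TRBV5-TRBJ1-2 junctions of 172 and 182 bases with 11 and 45 reads in spleen, and a TRBV1-TRBJ2-5 junction of 94 bases with 7 reads in spleen.

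A single CDR3 of 45 bases, joined to TRBJ1-2, was listed with TRBV5 in thymus (333 reads) and with TRBV2 in spleen (12 reads). These genes have the same germline bases in the CDR3, so the CDR3 does not show which V gene it holds. A D gene of the second cluster, TRBD2, was listed for 4 of the 56 member clonotypes in thymus that had a TRBJ1 gene and a D gene, and for 3 of 112 in spleen. TRBD2 lies downstream of the TRBJ1 genes, and such short D matches were not used in the report.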
